A study of Mus musculus with 23 samples.

Results

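The genes described here are interferon-stimulated genes, the set that cells switch on when an interferon binds its receptor. They were given as a fixed list of 43 symbols, and 42 of them have a row in the deposited table of 21900 protein-coding genes. The remaining symbol, Mx1, is not analysed here. All 42 genes passed the filter on low counts in every fit.

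The libraries came from OT-I cells, CD8 T cells with a transgenic receptor for a class I peptide of ovalbumin (OVA), and from OT-II cells, CD4 T cells with a transgenic receptor for a class II peptide of OVA. The OT-II libraries are named so by title and their source is given as CD4 cells, while their cell type label reads OT-i. Both kinds were transferred into mice, and the strain is given as C57BL/6. On day 1 after transfer the mice were given 1 ug of A8B1-OVA, free OVA at the molar-equivalent dose, free OVA at a higher dose, or saline as the control. No source used here explains A8B1, and the title of the series names erythrocyte targeting and T cell anergy. Cells were sorted on day 5 from pooled spleens and lymph nodes, and each library held RNA pooled from 3 mice. The 8 groups have 3 libraries each, except OT-II after higher-dose OVA, which has 2 (replicates 2 and 3). Nothing in the labels says that libraries of a group are separate beyond these pools, so every p below measures the spread between these libraries.

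Type I interferons act through IFNAR1 and IFNAR2, and type II interferon (IFN-gamma) through IFNGR1 and IFNGR2. Type I signalling acts through a complex with STAT2 and IRF9 at the interferon-stimulated response element (ISRE), whereas IFN-gamma signalling acts at the gamma-activated site (GAS). The guanylate-binding proteins and the immunity-related GTPases are strongly induced by IFN-gamma, and most antiviral effectors such as the IFIT proteins and viperin by type I interferon, with wide overlap.

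Promoter sequence was read from the RefSeq table for GRCm38.p6, which holds windows from 250 bases before to 50 after a transcript start for 30 of the 43 genes (35 windows). The ISRE core, searched as GAAANNGAAA on both strands, stood in a window of 18 of the 30 genes (60.0%), against 3.99% of the 27025 genes of the table. The GAS core, searched as TTCNNNGAA, which reads as the same pattern on both strands, stood in 9 of the 30 (30%), against 9.55% of the table. With 1 mismatch allowed, the ISRE core stood in 90.0% of the 30 genes against 38.9% of the table, and the GAS core in 86.7% against 74.2%. Gene coordinates below are those of GENCODE M21 on GRCm38. A match is a description of these letters and not a bound site. The stretches below run from 140 bases to 1 base before the start and were chosen because they carry a core in genes whose values are described below. Capitals mark every ISRE or GAS core, merged where cores overlap, and a core on the other strand appears as its reverse complement.

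Isg15 (chr4:156200819-156200958, minus strand) has 3 overlapping ISRE cores, Bst2 (chr8:71537473-71537612, minus strand) has 2 overlapping ISRE cores, the first of which overlaps a GAS core, and Oas3 (chr5:120777660-120777799, minus strand) has 1.
Isg15: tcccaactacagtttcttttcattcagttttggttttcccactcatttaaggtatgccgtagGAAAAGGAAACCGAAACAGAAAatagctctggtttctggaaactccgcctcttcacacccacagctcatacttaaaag
Bst2: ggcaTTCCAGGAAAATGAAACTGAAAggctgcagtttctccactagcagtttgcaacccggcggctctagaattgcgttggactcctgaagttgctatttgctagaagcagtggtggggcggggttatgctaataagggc
Oas3: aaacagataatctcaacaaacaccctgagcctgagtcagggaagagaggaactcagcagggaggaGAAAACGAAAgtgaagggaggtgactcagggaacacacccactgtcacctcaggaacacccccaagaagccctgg

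Gbp2 (chr3:142620523-142620662, plus strand) and Gbp7 (chr3:142530196-142530335, plus strand) each carry 1 ISRE core on the other strand, and Gbp7 has 2 GAS cores before it.
Gbp2: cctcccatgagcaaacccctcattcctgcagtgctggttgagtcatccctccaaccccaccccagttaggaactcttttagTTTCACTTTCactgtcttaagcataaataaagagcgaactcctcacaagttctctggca
Gbp7: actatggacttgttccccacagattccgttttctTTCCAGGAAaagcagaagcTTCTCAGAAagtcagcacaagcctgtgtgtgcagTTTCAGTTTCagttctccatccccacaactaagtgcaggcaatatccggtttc

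The immunity-related GTPase genes Irgm1 (chr11:48871421-48871560, minus strand), Igtp (chr11:58199416-58199555, plus strand) and Irgm2 (chr11:58214837-58214976, plus strand) carry their ISRE cores close to the start, 2 that overlap in Irgm1 and 1 in each of the others. In Igtp and Irgm2 a GAS core stands just before the ISRE core.
Irgm1: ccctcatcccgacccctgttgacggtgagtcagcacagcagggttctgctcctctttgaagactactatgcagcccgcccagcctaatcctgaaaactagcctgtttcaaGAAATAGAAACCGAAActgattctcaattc
Igtp: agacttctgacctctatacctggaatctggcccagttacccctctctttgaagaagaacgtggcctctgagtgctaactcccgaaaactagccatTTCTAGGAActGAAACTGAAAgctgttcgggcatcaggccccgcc
Irgm2: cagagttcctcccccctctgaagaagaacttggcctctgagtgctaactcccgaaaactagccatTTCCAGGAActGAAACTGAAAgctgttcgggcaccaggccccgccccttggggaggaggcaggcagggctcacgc

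Library totals ran from 26.6 M to 73.5 M estimated counts. Levels are CPM on TMM-scaled library totals, and differences are log2 fold changes from edgeR's quasi-likelihood test, called where the p adjusted over all genes tested (Benjamini-Hochberg) was under 0.05. CD8 lineage genes summed to 2380 to 4130 CPM in OT-I and 24.8 to 59.8 CPM in OT-II libraries, and Cd4 stood at 539 to 699 CPM in OT-II. In 5 libraries markers of other cells stood apart. Myeloid markers were raised in saline replicate 1 of both cell types. B cell markers were raised in replicate 2 (OT-I, with myeloid markers) and replicate 3 (OT-II) of molar-equivalent OVA, and Cd4 stood at 163 CPM in OT-I higher-dose OVA replicate 1. None of these 5 is an A8B1-OVA library. The 12 myeloid markers, each above 0 in all libraries, summed to 39.8 to 75.8 CPM after A8B1-OVA and 46.9 to 355 after saline in OT-I. In OT-II they summed to 48.3 to 96.0 after A8B1-OVA and 81.5 to 578 after saline. Of the other marker sums, the following did not overlap between A8B1-OVA and saline. The 4 plasmacytoid dendritic cell markers summed to 85.4 to 106 CPM after A8B1-OVA and 57.4 to 75.7 after saline in OT-I, and to 86.4 to 100 and 70.7 to 86.2 in OT-II. Most of that sum was Pacsin1 (56.8 to 105 CPM in all OT-I libraries), while the highest Siglech value was 7.63 CPM in OT-I and 2.03 in OT-II, and Cox6a2 and Klk1 were at 0 in some libraries. The 4 platelet markers summed to 0.316 to 0.75 CPM after A8B1-OVA and 0.999 to 1.98 after saline in OT-I, and to 0.41 to 0.989 and 1.39 to 3.46 in OT-II. The CD8 lineage sum in OT-II was 24.8 to 31.1 CPM after A8B1-OVA and 46.1 to 59.8 after saline, and Cd4 in OT-I was 2.5 to 16.3 and 1.1 to 2.19. Counts are given below with and without the 5 libraries, and the part of other cells in single values was not tested. In bulk samples such as these, fewer cells of a type and less RNA per cell cannot be told apart.

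With A8B1-OVA against saline, 13 of 42 interferon-stimulated genes fell in OT-II cells, where 2.88% of all tested genes were called lower. Among them were Gbp2, Bst2, Samhd1, Cmpk2 and 4 immunity-related GTPases, and the 13 log2 fold changes lay between -0.97 and -0.34. Fits without 1 library gave 3 to 11 falls, and 227 to 345 lower calls over all genes, against 425 in the main fit. In OT-I cells 6 fell (4.43% of all genes), among them Gbp7, Igtp and Ifi47, and Ifi27l2a rose by 1.62 on the log2 scale. The 6 falls became 0 without A8B1-OVA replicate 2, saline replicate 2 or 3, or the 5 raised-marker libraries. In these fits 177, 332, 225 and 323 genes were called lower over all genes, against 624 in the main fit. The call of Ifi27l2a held in each of these fits. The mean of A8B1-OVA was the lowest of the 4 treatments for 39 of 42 genes in OT-II (34.0% of all tested genes) and for 28 of 42 in OT-I (35.4%). The 3 exceptions in OT-II were Ifi44, Ifi27l2a and Oas1a. In OT-I, A8B1-OVA gave the highest mean for Zbp1, Isg20, Ifi27l2a, Parp14 and Dtx3l.

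**Figure D1:**
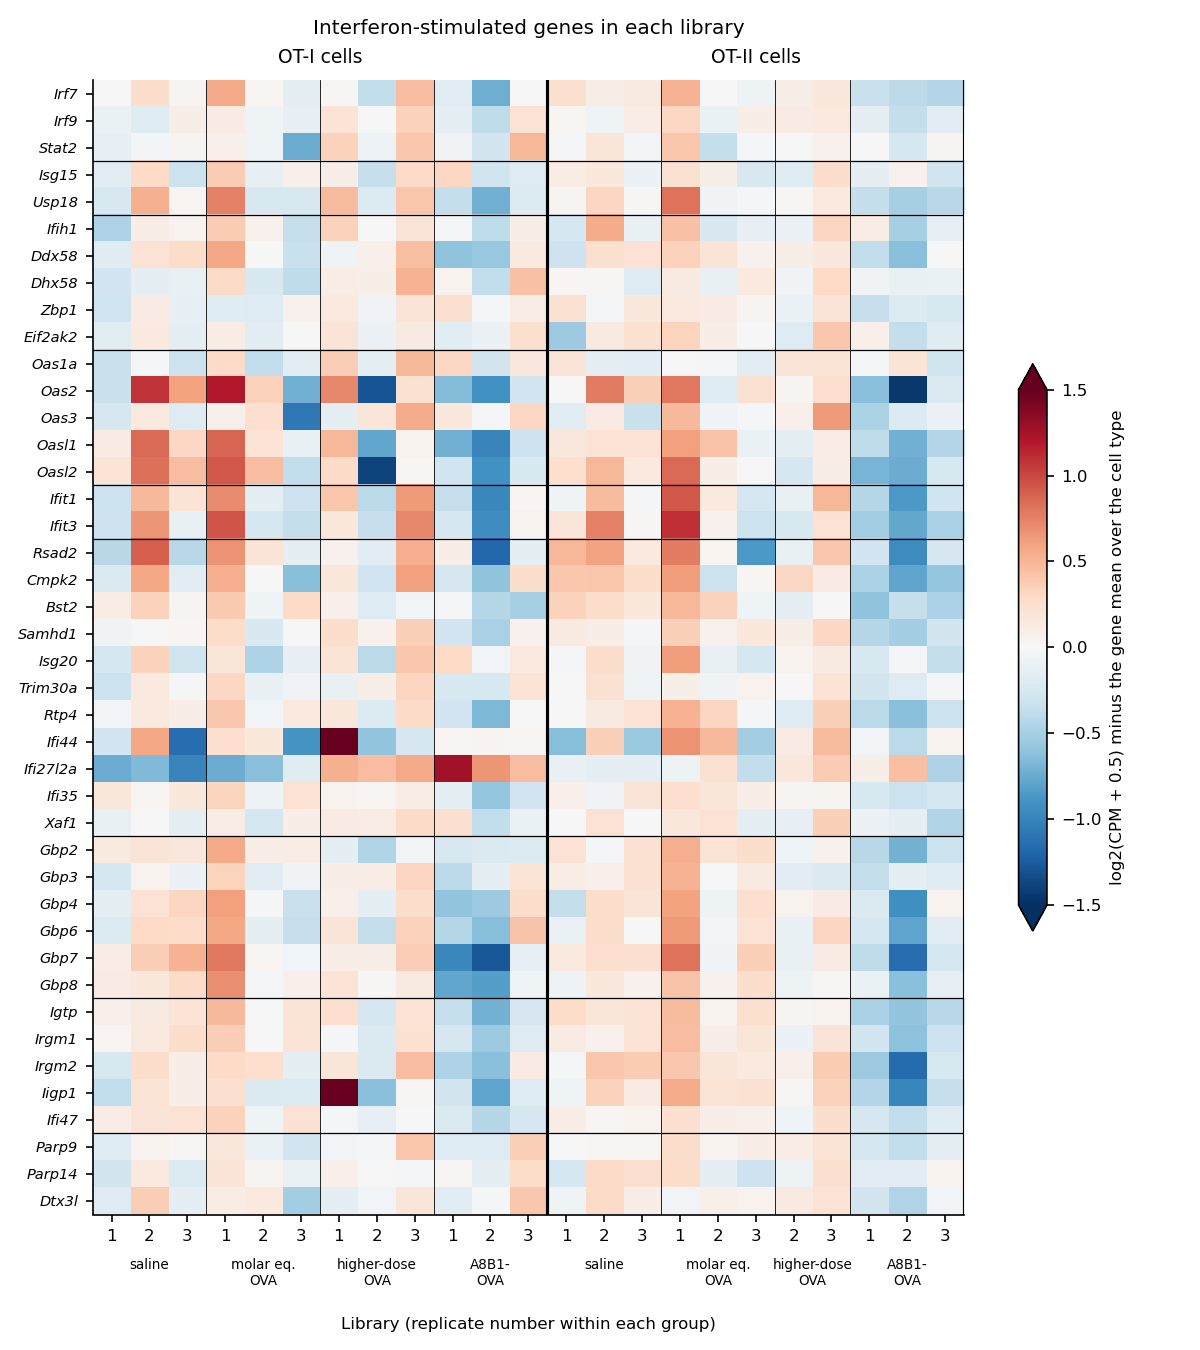
Each row is 1 of 42 interferon-stimulated genes, grouped by role, and each column is 1 of 23 libraries; colour is log2(CPM + 0.5) minus the mean of that gene over the libraries of the cell type. The OT-II A8B1-OVA columns are mostly blue, replicate 2 is the lowest A8B1-OVA library of each cell type in most rows, and the Ifi27l2a row goes the other way in OT-I.

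Averaged over the 42 genes, the difference of log2(CPM + 0.5) from the mean of the cell type was -0.288, -0.491 and -0.238 in the 3 OT-II A8B1-OVA libraries. The other OT-II libraries lay between -0.0186 and 0.457, so A8B1-OVA did not overlap them. In OT-I the A8B1-OVA libraries stood at -0.173, -0.473 and 0.0474 and the others between -0.201 and 0.396, which overlap. Replicate 2 was the lowest of its group for 33 of 42 genes in OT-I A8B1-OVA and for 31 in OT-II A8B1-OVA (28.7% and 33.5% of all genes). Molar-equivalent OVA replicate 1 was the highest of its group for 38 of 42 genes in both OT-I and OT-II (30.3% and 35.3% of all genes). Whether same-numbered OT-I and OT-II libraries are independent cannot be told from the labels.

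In OT-II, 13 of 42 genes fell and 0 rose with A8B1-OVA against saline, where 7.28% of all tested genes were called (2.88% lower). The median log2 fold change of the 42 genes was -0.36, against -0.01 over all genes, and 39 of 42 values were below 0. For 27 genes all 3 A8B1-OVA libraries lay under all 3 saline libraries (11.9% of all genes). The 42 genes varied together between libraries of a group (median Pearson r of 0.56 over pairs of genes). Such counts are therefore not 42 separate observations. Against molar-equivalent OVA, which shares the A8B1-OVA libraries, 16 fell and 0 rose (6.36% of all genes called, 2.43% lower), with a median of -0.51. Against the 2 libraries of higher-dose OVA, Samhd1 and Igtp fell (1.34% of all genes called, 0.522% lower), all 42 values were below 0, and the median was -0.42. Without the 5 libraries named above, 6, 15 and 0 genes fell in these 3 comparisons, with medians of -0.43, -0.58 and -0.41. Over all genes 222, 245 and 37 were then called lower, against 425, 358 and 77 in the main fit. The 13 calls became 5, 3, 7, 5 and 4 without A8B1-OVA replicate 1 or 2 or saline replicate 1, 2 or 3, and the 16 became 8, 7 and 4 without A8B1-OVA replicate 1 or 2 or molar-equivalent OVA replicate 1. Over all genes the lower calls became 258, 234, 295, 306 and 227, and 210, 202 and 138, in the same fits. The 2 became 0 without A8B1-OVA replicate 1 or 2 or either higher-dose library. In fits on the 2 groups compared alone the 16 became 9 and the 2 became 0, and 268 and 20 genes were called lower over all genes. Igtp and Bst2 were called against saline, and those 2 with Gbp2 and Samhd1 against molar-equivalent OVA, without any 1 library.

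In OT-I, 6 of 42 genes fell and 1 rose with A8B1-OVA against saline, where 11.5% of all tested genes were called (4.43% lower, 7.07% higher). The median was -0.32, against -0.02 over all genes, and 29 of 42 values were below 0. For 11 genes the A8B1-OVA libraries all lay under the saline libraries (15.5% of all genes). Against molar-equivalent OVA 7 fell and 1 rose (10.6% of all genes called, 4.06% lower, 6.56% higher), with a median of -0.32. Against higher-dose OVA 0 were called by edgeR (2.41% of all genes called), while 11 had an unadjusted p under 0.05, DESeq2 called 6 lower, and the median was -0.31. Over all genes DESeq2 called 434 lower there and edgeR 109. Without the 5 libraries 0 fell against saline (median -0.42) and 6 against molar-equivalent OVA (median -0.38), and Ifi27l2a rose in both. Over all genes 323 and 446 were then called lower, against 624 and 572 in the main fit. The 6 lower calls against saline became 3 without A8B1-OVA replicate 1, 1 without saline replicate 1, and 0 without A8B1-OVA replicate 2 or saline replicate 2 or 3. Over all genes the lower calls became 364, 292, 177, 332 and 225 in these fits. Against molar-equivalent OVA the 7 became 2 without A8B1-OVA replicate 1 and 0 without A8B1-OVA replicate 2 or molar-equivalent OVA replicate 1. There the lower calls over all genes became 341, 146 and 408. In a fit on these 2 groups alone the 7 became 0, with a median of -0.31, and 141 genes were called lower over all genes. Against higher-dose OVA, 5 genes were called lower without A8B1-OVA replicate 3, where 596 were called lower over all genes (109 in the main fit). Ifi27l2a was the only one of the 42 whose OT-I calls against saline and molar-equivalent OVA held without any 1 library.

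**Figure D2:**
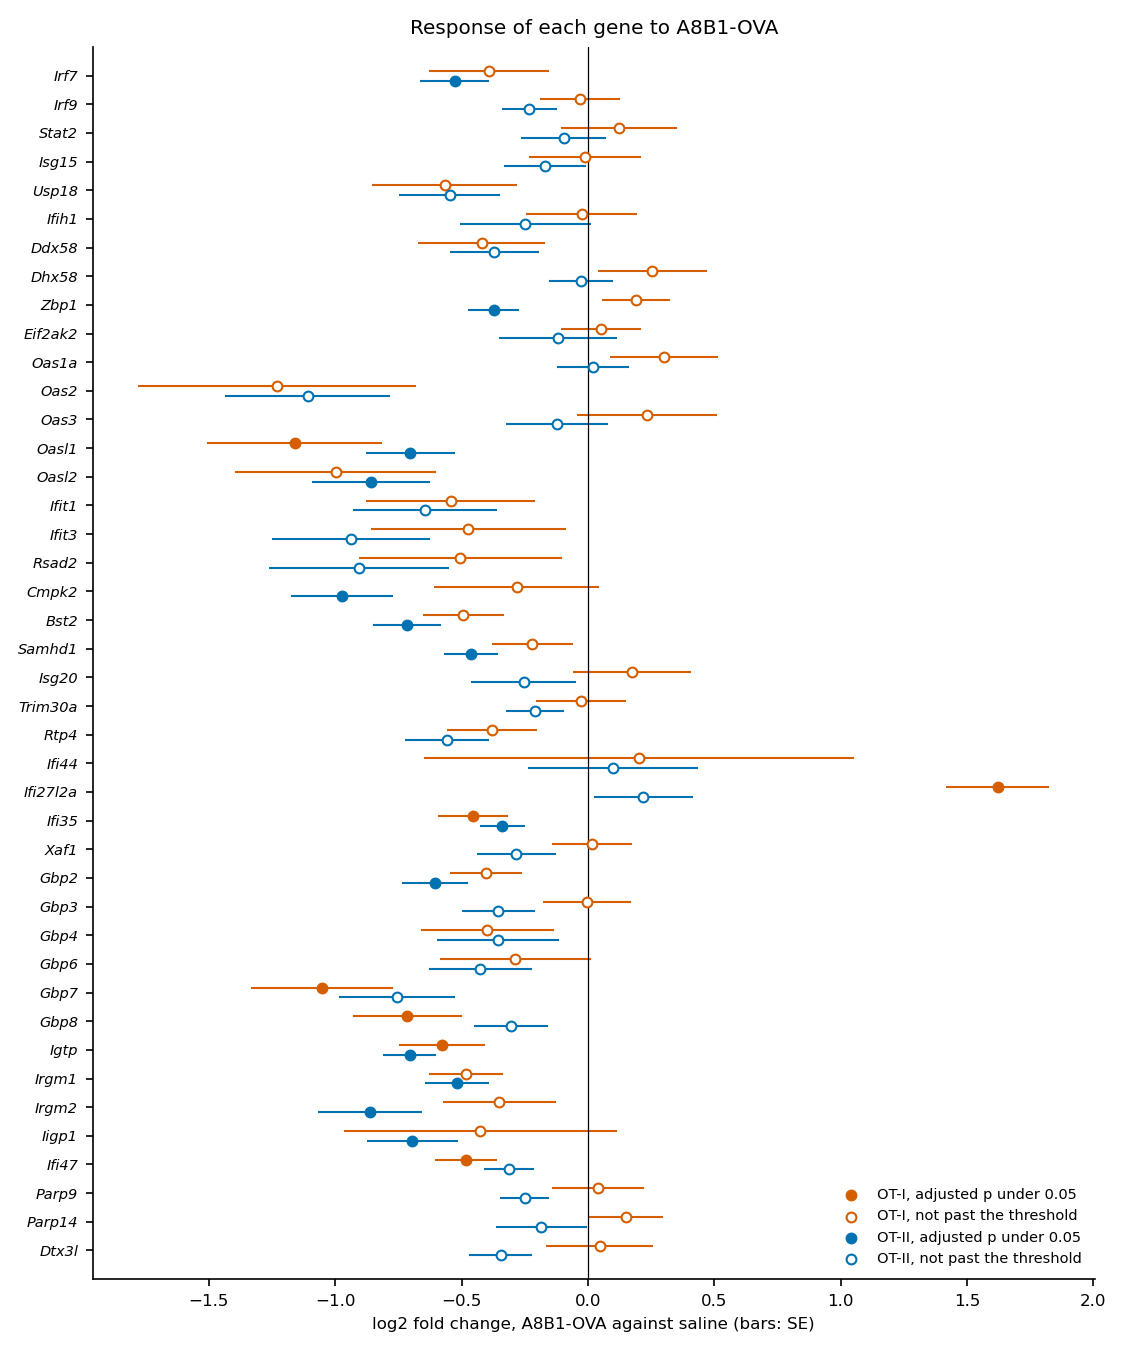
Points give the log2 fold change of A8B1-OVA against saline for each of 42 genes in OT-I (orange) and OT-II (blue), bars give the SE, and filled points passed an adjusted p under 0.05. Left of 0 lie 29 of 42 points in OT-I and 39 of 42 in OT-II, of which 6 and 13 are filled. The only filled point on the right is Ifi27l2a in OT-I at 1.62.

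With the other treatments few of these genes were called, as were few of all tested genes. With molar-equivalent OVA against saline, edgeR called 0 of 42 in OT-I and 0 in OT-II, with 0 and 0 at an unadjusted p under 0.05 and 0 and 0 by DESeq2; it called 0% of all genes. With higher-dose OVA in OT-II, 0 of 42 were called against saline (0.0271% of all genes called) and 0 against molar-equivalent OVA (0%), with 1 and 3 at an unadjusted p under 0.05 and 0 and 0 by DESeq2. With higher-dose OVA in OT-I, Ifi27l2a rose against saline (2.41% of all genes called, 1.97% higher) and against molar-equivalent OVA (1.04% called, 0.838% higher), and no other gene of the 42 was called. Medians over the 42 genes in these comparisons lay between -0.05 and 0.13.

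The immunity-related GTPases are IFN-gamma-inducible proteins that attack the vacuoles of intracellular microbes. In OT-II 4 of 5 fell against saline and 5 of 5 against molar-equivalent OVA, where 2.88% and 2.43% of all genes were called lower. In OT-I 2 and 3 of 5 fell (4.43% and 4.06% of all genes), and none of these was called without A8B1-OVA replicate 2. In those fits 177 and 146 genes were called lower over all genes. Igtp (also Irgm3, chr11:58199556-58207591) keeps such GTPases inactive on the cell's own membranes. In OT-II it stood at 453, 423 and 432 CPM after saline, 519, 388 and 442 after molar-equivalent OVA, 385 and 388 after higher-dose OVA, and 266, 248 and 280 after A8B1-OVA. The 3 A8B1-OVA values lay below all 8 others. The log2 fold changes were -0.71 ± 0.10 SE, adjusted p = 0.00185 against saline, -0.75 (adjusted p = 0.00144) against molar-equivalent OVA and -0.53 (adjusted p = 0.0458) against higher-dose OVA. In OT-I, Igtp stood at 260, 270 and 283 CPM after saline, 345, 246 and 283 after molar-equivalent OVA, 293, 206 and 285 after higher-dose OVA, and 193, 150 and 206 after A8B1-OVA. One higher-dose library reached the A8B1-OVA range, and the fold changes were -0.58 ± 0.17 SE, adjusted p = 0.045 against saline and -0.68 (adjusted p = 0.0238) against molar-equivalent OVA. Igtp overlaps exons of Irgm2 on the same strand, and 15.9% of its 31-base words are shared, most with Irgm2, so counts can pass between the pair.

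Irgm1 (chr11:48861968-48871683), a GTPase of the same regulatory kind, stood in OT-II at 231, 222 and 243 CPM after saline, 291, 225 and 240 after molar-equivalent OVA, 198 and 242 after higher-dose OVA, and 174, 138 and 170 after A8B1-OVA. A8B1-OVA lay below the 8 others, and falls were called against saline (-0.52 ± 0.13 SE, adjusted p = 0.0283) and against molar-equivalent OVA (-0.64, adjusted p = 0.0118). The OT-I libraries held 199, 217 and 234 CPM after saline, 252, 194 and 226 after molar-equivalent OVA, 192, 168 and 230 after higher-dose OVA, and 164, 134 and 170 after A8B1-OVA. There the fall was called against molar-equivalent OVA (-0.53, adjusted p = 0.038) and not against saline (-0.48 ± 0.15 SE, adjusted p = 0.0528). Irgm2 (chr11:58199618-58222782) stood in OT-II at 73, 97.7 and 96.1 CPM after saline, 97.9, 83.7 and 82.1 after molar-equivalent OVA, 77.9 and 96.2 after higher-dose OVA, and 50.3, 32.9 and 62.4 after A8B1-OVA, with A8B1-OVA below every other library and replicate 2 lowest. Irgm2 fell against saline (-0.86 ± 0.21 SE, adjusted p = 0.0247) and molar-equivalent OVA (-0.84, adjusted p = 0.0301). The OT-I values of Irgm2 were 38.6, 54.7 and 48.8 CPM after saline, 56.4, 54.4 and 41.5 after molar-equivalent OVA, 51.8, 39.3 and 63.3 after higher-dose OVA, and 33, 29.5 and 49.6 after A8B1-OVA. A8B1-OVA overlapped each other treatment, and no change was called (-0.35 ± 0.22 SE, adjusted p = 0.342, against saline).

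Ifi47 (also Irg47, chr11:49076587-49096974) stood in OT-I at 553, 585 and 593 CPM after saline, 648, 486 and 592 after molar-equivalent OVA, 503, 468 and 513 after higher-dose OVA, and 440, 379 and 428 after A8B1-OVA. All A8B1-OVA values lay under the 9 others. Ifi47 fell against saline (-0.48 ± 0.12 SE, adjusted p = 0.0232) and against molar-equivalent OVA (-0.48, adjusted p = 0.0274). In OT-II the levels were 523, 500 and 509 CPM after saline, 581, 525 and 518 after molar-equivalent OVA, 469 and 588 after higher-dose OVA, and 410, 379 and 431 after A8B1-OVA. A8B1-OVA was again lowest, and the fall was called against molar-equivalent OVA (-0.40, adjusted p = 0.0331) and not against saline (-0.31 ± 0.10 SE, adjusted p = 0.081). Ifi47 overlaps Olfr56 on the same strand. Iigp1 (Irga6, an effector GTPase that loads onto pathogen vacuoles) stood in OT-II at 69, 92.1 and 78.6 CPM after saline, 107, 83.2 and 84.7 after molar-equivalent OVA, 73.4 and 91.7 after higher-dose OVA, and 53.2, 36.6 and 57 after A8B1-OVA. A8B1-OVA held the 3 lowest values, and Iigp1 fell against saline (-0.70 ± 0.18 SE, adjusted p = 0.0378) and molar-equivalent OVA (-0.89, adjusted p = 0.0127). Its OT-I level was far lower and is given with the comparison of the cell types.

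**Figure D3:**
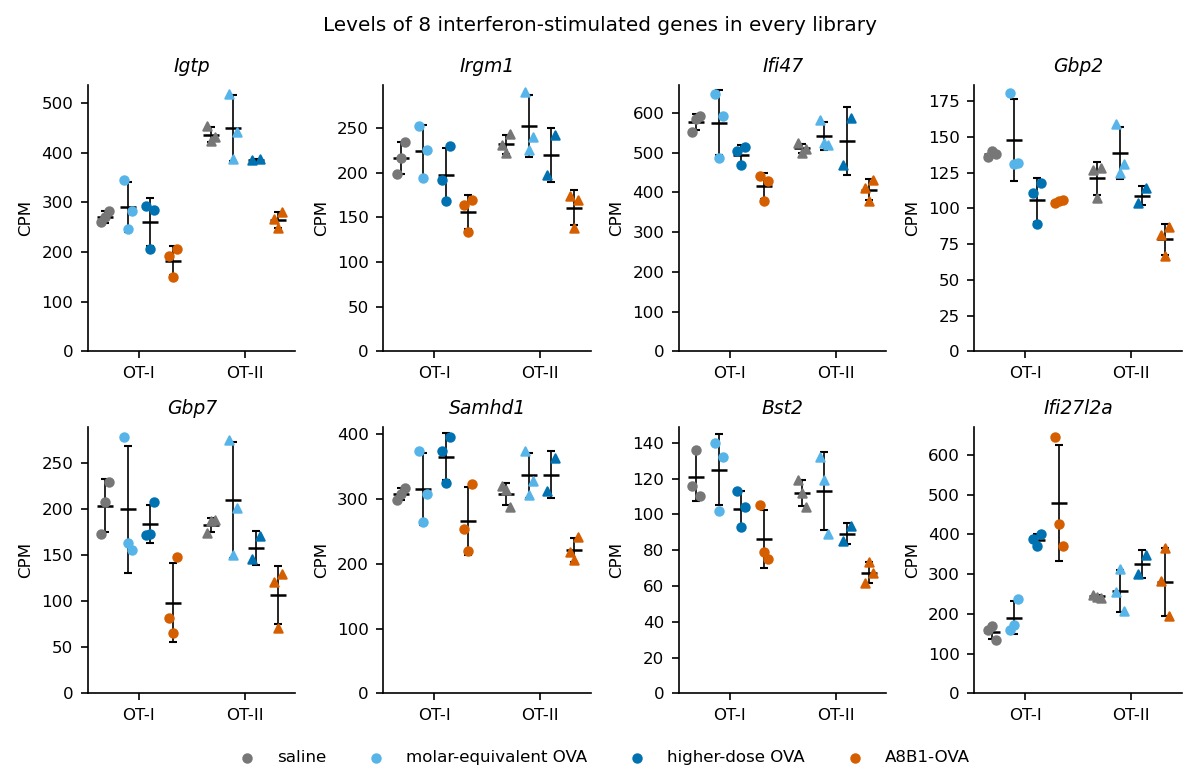
CPM of 8 interferon-stimulated genes in every library, by cell type (circles OT-I, triangles OT-II) and treatment (colours), on linear axes from 0; bars give the mean and SD of a group. A8B1-OVA (orange) is the lowest group for Igtp, Irgm1, Ifi47, Gbp7, Samhd1 and Bst2 in both cell types and for Gbp2 in OT-II, Gbp2 in OT-I is level with higher-dose OVA, and Ifi27l2a in OT-I is high after A8B1-OVA and higher-dose OVA.

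The guanylate-binding proteins are large GTPases that coat pathogen vacuoles and help to set off inflammasomes. In OT-I 2 of 6 fell against saline (Gbp7 and Gbp8) and 3 of 6 against molar-equivalent OVA (with Gbp2). There 4.43% and 4.06% of all genes were called lower, and none of these falls was called without A8B1-OVA replicate 2. Over all genes 177 and 146 were then called lower. In OT-II 1 of 6 (Gbp2) and 2 of 6 (Gbp2 and Gbp7) fell (2.88% and 2.43% of all genes). All 6 values were below 0 in these 4 comparisons. Gbp2 (chr3:142620602-142638008) stood in OT-II at 127, 107 and 128 CPM after saline, 159, 125 and 131 after molar-equivalent OVA, 104 and 114 after higher-dose OVA, and 81.6, 66.5 and 87.1 after A8B1-OVA, with every A8B1-OVA library under the others. Gbp2 fell against saline (-0.60 ± 0.13 SE, adjusted p = 0.0151) and molar-equivalent OVA (-0.81, adjusted p = 0.00339). In OT-I it stood at 136, 140 and 138 CPM after saline, 181, 131 and 132 after molar-equivalent OVA, 111, 89 and 118 after higher-dose OVA, and 104, 105 and 106 after A8B1-OVA. Here the higher-dose values reached from below to above those of A8B1-OVA, and the fall was called against molar-equivalent OVA (-0.50, adjusted p = 0.0402) and not against saline (-0.40 ± 0.14 SE, adjusted p = 0.0902).

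Gbp7 (chr3:142530342-142550149) ranged in OT-I from 66.2 to 148 CPM after A8B1-OVA, where replicate 3 was the highest, and from 156 to 279 in the other groups. The log2 fold change was -1.05 ± 0.28 SE, adjusted p = 0.0285 against saline, the largest fall among the called genes of the family, and -1.02 (adjusted p = 0.0352) against molar-equivalent OVA. In OT-II it ranged from 70.8 to 130 after A8B1-OVA and from 146 to 276 otherwise, and the fall was called against molar-equivalent OVA (-0.95, adjusted p = 0.0296). Gbp8 ranged in OT-I from 72.2 to 123 CPM after A8B1-OVA and from 127 to 209 otherwise, and fell against saline (-0.71, adjusted p = 0.0496) and molar-equivalent OVA (-0.81, adjusted p = 0.0311). It shares 28.2% of its words, most with Gbp9, and its counts are uncertain for that reason.

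Gbp4 (chr5:105115767-105139586) was not called in any comparison. Its OT-I libraries held 267, 340 and 365 CPM after saline, 448, 285 and 231 after molar-equivalent OVA, 308, 266 and 351 after higher-dose OVA, and 193, 199 and 349 after A8B1-OVA. Its OT-II libraries held 255, 393 and 373 CPM after saline, 498, 310 and 390 after molar-equivalent OVA, 338 and 355 after higher-dose OVA, and 282, 173 and 338 after A8B1-OVA. The saline range held 1 A8B1-OVA library in OT-I and 2 in OT-II. Gbp3 stood at 32.5, 40.6 and 37 CPM after saline, 49.4, 34.7 and 37.8 after molar-equivalent OVA, 41.7, 42.5 and 49 after higher-dose OVA, and 29.8, 35.4 and 45.4 after A8B1-OVA in OT-I. The OT-II values of Gbp3 were 30, 29.2 and 32.5 CPM after saline, 40.1, 27.7 and 30.6 after molar-equivalent OVA, 24.9 and 23.8 after higher-dose OVA, and 21.6, 24.9 and 24.5 after A8B1-OVA. No treatment change was called. Gbp6 ranged from 111 to 258 CPM in OT-I libraries and 104 to 280 in OT-II, was not called, and shares 74.1% of its words, most with Gm43302.

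Of the signalling genes, Irf7, the transcription factor that amplifies type I interferon production, fell in OT-II against saline (-0.53 ± 0.14 SE, adjusted p = 0.0373) and molar-equivalent OVA (-0.55, adjusted p = 0.0327). Its OT-II levels lay at 123 to 133 CPM after A8B1-OVA and at 158 to 242 CPM otherwise. In OT-I it ranged from 103 to 171 CPM after A8B1-OVA and 133 to 254 otherwise and was not called (-0.39 ± 0.24 SE, adjusted p = 0.321, against saline). Irf9 (chr14:55603571-55610030), the DNA-binding part of the complex with STAT2, stood at 178, 168 and 202 CPM after saline, 208, 181 and 174 after molar-equivalent OVA, 220, 191 and 243 after higher-dose OVA, and 172, 146 and 222 after A8B1-OVA in OT-I. The OT-II libraries held 245, 229 and 260 CPM after saline, 297, 224 and 257 after molar-equivalent OVA, 261 and 265 after higher-dose OVA, and 216, 187 and 215 after A8B1-OVA. No treatment change was called. Stat2 ranged from 46.3 to 111 CPM in OT-I libraries and 71.4 to 123 in OT-II and was not called.

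Isg15, a ubiquitin-like modifier, and Usp18, which removes it and dampens the type I receptor, were not called in any comparison. Usp18 (chr6:121245906-121270917) stood at 61.1, 104 and 73.5 CPM after saline, 122, 60.7 and 61 after molar-equivalent OVA, 100, 62.6 and 96.2 after higher-dose OVA, and 56.2, 43.7 and 62.3 after A8B1-OVA in OT-I. The OT-II values of Usp18 were 93.3, 114 and 92 CPM after saline, 161, 87.4 and 89.1 after molar-equivalent OVA, 92 and 101 after higher-dose OVA, and 71.1, 64 and 67.7 after A8B1-OVA. Its 3 OT-II A8B1-OVA values lay below the 8 others, with a log2 fold change of -0.55 ± 0.20 SE, adjusted p = 0.131 against saline and an adjusted p of 0.0532 against molar-equivalent OVA. Isg15 ranged from 30.3 to 50.3 CPM in OT-I libraries and 27.3 to 40.1 in OT-II, with log2 fold changes of -0.01 and -0.17 against saline.

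Among the sensors of foreign nucleic acid, Zbp1 binds Z-form nucleic acid and can trigger cell death. It was the 1 of 5 that fell in OT-II against saline (-0.37 ± 0.10 SE, adjusted p = 0.0467), where 2.88% of all genes were called lower. Its OT-II libraries held 146, 123 and 138 CPM after saline, 138, 135 and 128 after molar-equivalent OVA, 116 and 141 after higher-dose OVA, and 97.8, 108 and 105 after A8B1-OVA. In OT-I the values were 109, 146 and 122 CPM after saline, 117, 116 and 140 after molar-equivalent OVA, 148, 128 and 152 after higher-dose OVA, and 157, 131 and 144 after A8B1-OVA, with 0.19 ± 0.14 SE, adjusted p = 0.403 against saline. The difference between the 2 responses was 0.59 ± 0.17 SE, adjusted p = 0.179 and did not pass the threshold. Ddx58 (RIG-I, chr4:40203773-40239828), a sensor of viral RNA ends, stood at 131, 173 and 180 CPM after saline, 223, 149 and 118 after molar-equivalent OVA, 144, 157 and 205 after higher-dose OVA, and 98.2, 100 and 165 after A8B1-OVA in OT-I. The OT-II values of Ddx58 were 119, 176 and 172 CPM after saline, 189, 171 and 156 after molar-equivalent OVA, 158 and 166 after higher-dose OVA, and 115, 95.9 and 148 after A8B1-OVA. A8B1-OVA replicate 3 stood above the other A8B1-OVA libraries in both cell types, and Ddx58 was not called. Its groups overlapped in OT-I, while in OT-II A8B1-OVA overlapped saline and lay under both free OVA groups. Dhx58 (LGP2), a regulator of that pathway, held 45.8, 50.9 and 51.6 CPM after saline, 68.6, 47.9 and 43 after molar-equivalent OVA, 60.7, 59.8 and 80.9 after higher-dose OVA, and 58.4, 43.1 and 76.5 after A8B1-OVA in OT-I. The OT-II values of Dhx58 were 40.2, 39.8 and 34.2 CPM after saline, 43.3, 36.4 and 43.5 after molar-equivalent OVA, 38 and 48.4 after higher-dose OVA, and 37.9, 36.3 and 36.7 after A8B1-OVA. No treatment change of Dhx58 was called. Ifih1 (MDA5) and Eif2ak2 (the kinase PKR) ranged from 12.2 to 22.3 and 17.9 to 24 CPM in OT-I libraries and from 15.9 to 33.4 and 11.1 to 21.9 in OT-II and were not called.

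Active enzymes of the 2-5A synthetase family, which are not all of its members, make the messenger that activates RNase L. Oasl1, known as a brake on Irf7 translation, stood in OT-II at 31.1, 32.2 and 32.1 CPM after saline, 42.4, 37.3 and 25.8 after molar-equivalent OVA, 25.2 and 30 after higher-dose OVA, and 21.2, 16.6 and 20.3 after A8B1-OVA. Oasl1 fell against saline (-0.70 ± 0.18 SE, adjusted p = 0.0308) and molar-equivalent OVA (-0.85, adjusted p = 0.0136), and all A8B1-OVA values lay under the others. In OT-I it held 14.8, 24.8 and 16.9 CPM after saline, 25.2, 15.7 and 12.5 after molar-equivalent OVA, 19.3, 7.66 and 14.1 after higher-dose OVA, and 8.03, 6.58 and 10.8 after A8B1-OVA, and fell against saline (-1.16 ± 0.35 SE, adjusted p = 0.0472). There the higher-dose replicate 2 value lay within the A8B1-OVA range. Oasl2 ranged in OT-II from 13.8 to 19.8 CPM after A8B1-OVA and 19.7 to 42.7 otherwise, with 1 higher-dose library at the edge of the A8B1-OVA range, and fell against saline (-0.86, adjusted p = 0.046) and molar-equivalent OVA (-0.92, adjusted p = 0.0366). Oas2 had fold changes of -1.11 ± 0.33 SE, adjusted p = 0.0617 in OT-II and -1.23 ± 0.55 SE, adjusted p = 0.175 in OT-I against saline, with OT-I saline libraries as far apart as 7.01 to 19.6 CPM. Oas1a ranged from 23.7 to 43.7 CPM in OT-I libraries and 27 to 38.3 in OT-II, was not called, and shares 68.8% of its words, most with Oas1g.

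The IFIT proteins bind viral RNA that lacks host-type cap methylation. Ifit1 (chr19:34640871-34650009) stood at 60, 105 and 86.4 CPM after saline, 122, 68.1 and 60.4 after molar-equivalent OVA, 100, 56.5 and 116 after higher-dose OVA, and 58.9, 38.2 and 76.2 after A8B1-OVA in OT-I. The OT-II values of Ifit1 were 86.3, 126 and 89 CPM after saline, 173, 100 and 75 after molar-equivalent OVA, 83.5 and 128 after higher-dose OVA, and 67.4, 49.7 and 73.7 after A8B1-OVA. In OT-II the A8B1-OVA values were the 3 lowest of the 11, but neither Ifit1 (-0.65 ± 0.28 SE, adjusted p = 0.213, against saline) nor Ifit3 (-0.94, adjusted p = 0.0982) passed the threshold. Ifit3 ranged from 39 to 143 CPM in OT-I libraries and 31.8 to 117 in OT-II and shares 61.8% of its words, most with Ifit3b.

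Of the 11 measured other antiviral effectors, 4 fell in OT-II against saline and 5 against molar-equivalent OVA (2.88% and 2.43% of all genes). Bst2 (tetherin, chr8:71534255-71537456), which holds budding virions on the cell, stood in OT-II at 119, 112 and 104 CPM after saline, 132, 119 and 89.2 after molar-equivalent OVA, 85.2 and 93.4 after higher-dose OVA, and 61.6, 73.4 and 67.4 after A8B1-OVA. Every A8B1-OVA value lay below the others, and it fell against saline (-0.72 ± 0.14 SE, adjusted p = 0.00794) and molar-equivalent OVA (-0.74, adjusted p = 0.00746). Its OT-I values were 116, 136 and 110 CPM after saline, 140, 102 and 132 after molar-equivalent OVA, 113, 93.1 and 104 after higher-dose OVA, and 105, 79 and 75.3 after A8B1-OVA. The change was -0.49 ± 0.16 SE, adjusted p = 0.066 against saline and -0.53 ± 0.16 SE, adjusted p = 0.0501 against molar-equivalent OVA. Samhd1 (chr2:157097533-157135265), a dNTPase that restricts retroviruses, stood in OT-II at 320, 314 and 288 CPM after saline, 374, 306 and 327 after molar-equivalent OVA, 312 and 363 after higher-dose OVA, and 218, 205 and 241 after A8B1-OVA. A8B1-OVA lay below the 8 others, and Samhd1 fell against saline (-0.46 ± 0.11 SE, adjusted p = 0.0212), molar-equivalent OVA (-0.59, adjusted p = 0.00683) and higher-dose OVA (-0.59, adjusted p = 0.0333). In OT-I it held 298, 308 and 317 CPM after saline, 374, 265 and 307 after molar-equivalent OVA, 373, 325 and 396 after higher-dose OVA, and 254, 220 and 323 after A8B1-OVA. A8B1-OVA replicate 3 lay above the saline libraries (-0.22 ± 0.16 SE, adjusted p = 0.41, against saline).

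Cmpk2 (chr12:26469204-26479837), a mitochondrial nucleotide kinase that lies beside Rsad2, stood in OT-II at 41.9, 42.4 and 37.9 CPM after saline, 49.1, 25.1 and 32.1 after molar-equivalent OVA, 39.2 and 34.6 after higher-dose OVA, and 22.6, 18 and 21 after A8B1-OVA. All A8B1-OVA values lay below the rest, and Cmpk2 fell against saline (-0.97 ± 0.20 SE, adjusted p = 0.013) and molar-equivalent OVA (-0.78, adjusted p = 0.0406). The OT-I libraries held 36.5, 63.8 and 38.2 CPM after saline, 62.1, 42.6 and 27.1 after molar-equivalent OVA, 47.9, 34.6 and 65.4 after higher-dose OVA, and 35.5, 27.9 and 51 after A8B1-OVA. These overlapped (-0.28 ± 0.33 SE, adjusted p = 0.627, against saline). Rsad2 (viperin), its neighbour, ranged from 6.36 to 28.5 CPM in OT-I libraries and 5.9 to 20.4 in OT-II and was not called (-0.91 in OT-II against saline, adjusted p = 0.162). Ifi35 (chr11:101448407-101458698) was called lower in both cell types against both saline and molar-equivalent OVA. It stood at 181, 164 and 178 CPM after saline, 203, 151 and 186 after molar-equivalent OVA, 166, 163 and 173 after higher-dose OVA, and 145, 107 and 132 after A8B1-OVA in OT-I. The OT-II values of Ifi35 were 150, 137 and 162 CPM after saline, 169, 161 and 152 after molar-equivalent OVA, 146 and 145 after higher-dose OVA, and 121, 113 and 118 after A8B1-OVA. The A8B1-OVA values lay under all others in each cell type, with -0.46 ± 0.14 SE, adjusted p = 0.0494 in OT-I and -0.34 (adjusted p = 0.0409) in OT-II against saline. The 2 calls against saline were each lost in 9 of 12 alternative fits, with adjusted p up to 0.24 in OT-I and 0.166 in OT-II, and those against molar-equivalent OVA in 4 of 12 and 1 of 12.

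Rtp4, a chaperone for receptor transport, stood in OT-II at 80.7, 88.6 and 93.3 CPM after saline, 116, 101 and 79.8 after molar-equivalent OVA, 70.2 and 103 after higher-dose OVA, and 60.6, 52.1 and 64.2 after A8B1-OVA. It fell against molar-equivalent OVA (-0.73 ± 0.17 SE, adjusted p = 0.0218) but was not called against saline (-0.56, adjusted p = 0.066). Its OT-I libraries held 105, 120 and 116 CPM after saline, 143, 105 and 120 after molar-equivalent OVA, 121, 93.8 and 132 after higher-dose OVA, and 88.6, 67.8 and 108 after A8B1-OVA. No change was called there. Trim30a, a brake on Toll-like receptor signalling, and Xaf1 were called between the cell types only. Trim30a held 103, 143 and 128 CPM after saline, 161, 120 and 125 after molar-equivalent OVA, 120, 138 and 162 after higher-dose OVA, and 111, 109 and 150 after A8B1-OVA in OT-I. The OT-II values of Trim30a were 87.6, 103 and 83.8 CPM after saline, 93, 84.3 and 90.9 after molar-equivalent OVA, 87.6 and 101 after higher-dose OVA, and 72.3, 76.6 and 86.2 after A8B1-OVA. Its treatments overlapped in OT-I, and in OT-II A8B1-OVA overlapped saline and molar-equivalent OVA and lay under higher-dose OVA. Xaf1, a pro-apoptotic protein, held 58.2, 63.3 and 57 CPM after saline, 67.9, 52.3 and 67.6 after molar-equivalent OVA, 68.6, 68.2 and 77.1 after higher-dose OVA, and 74.6, 48.4 and 58.9 after A8B1-OVA in OT-I. The OT-II values of Xaf1 were 47.4, 55.4 and 47.8 CPM after saline, 53.8, 55.4 and 43.4 after molar-equivalent OVA, 43.8 and 61.5 after higher-dose OVA, and 44.9, 43 and 34.9 after A8B1-OVA. No treatment change of either gene was called. Isg20, an RNA exonuclease, ranged from 23 to 42.5 CPM in OT-I libraries and 28.2 to 56.4 in OT-II and was not called.

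Ifi27l2a (chr12:103442167-103443680), which encodes a small hydrophobic protein of the ISG12 family, rose in OT-I. In OT-I it stood at 160, 169 and 135 CPM after saline, 160, 173 and 238 after molar-equivalent OVA, 388, 371 and 400 after higher-dose OVA, and 646, 425 and 370 after A8B1-OVA. Every A8B1-OVA and higher-dose OVA value lay above all saline and molar-equivalent values, with A8B1-OVA replicate 1 the highest. It rose with A8B1-OVA against saline (1.62 ± 0.20 SE, adjusted p = 0.000314) and against molar-equivalent OVA (1.33, adjusted p = 0.00151). With higher-dose OVA it rose against saline (1.34 ± 0.20 SE, adjusted p = 0.00514), where the adjusted p was 0.0572 without the 5 libraries, and against molar-equivalent OVA (1.05, adjusted p = 0.0294). The last call was lost without molar-equivalent OVA replicate 1 or 2 or any 1 higher-dose library (adjusted p = 0.0584 to 0.113) and without the 5 libraries (0.151). A8B1-OVA and higher-dose OVA, whose ranges overlap, differed by 0.28 ± 0.20 SE, adjusted p = 0.481. In OT-II the values were 247, 243 and 241 CPM after saline, 254, 313 and 208 after molar-equivalent OVA, 300 and 349 after higher-dose OVA, and 284, 365 and 194 after A8B1-OVA. A8B1-OVA overlapped every other treatment (0.22 ± 0.20 SE, adjusted p = 0.598, against saline). Both higher-dose OVA values lay above the saline values (0.41 ± 0.22 SE, adjusted p = 0.887), and no change was called in OT-II.

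The response of Ifi27l2a to A8B1-OVA against saline was greater in OT-I than in OT-II by 1.43 ± 0.30 SE, adjusted p = 0.0362, the 1 of 42 genes called in this test (0.433% of all genes called, 0.309% higher). That call was lost without OT-I A8B1-OVA replicate 1 (adjusted p = 0.105) or 2 (0.0592), OT-II A8B1-OVA replicate 1 (0.0914) or 3 (0.115), or any 1 saline library of OT-I (0.0637 to 0.139) or OT-II (0.071 to 0.084), and without the 5 libraries (0.166). The log2 difference lay between 1.17 and 1.66 in all of these fits. With same-numbered OT-I and OT-II libraries paired by a replicate block, 1 of the 42 differences was called, higher in OT-I. That paired fit called 75 genes higher and 26 lower over all genes, and the unpaired fit 47 and 19. For higher-dose OVA against saline 0 of 42 differences between the cell types were called by edgeR (0.00656% of all genes called), with 2 at an unadjusted p under 0.05 and 0 by DESeq2.

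Dtx3l and Parp9 form a ubiquitin ligase complex, and Parp14 is an ADP-ribosyltransferase. Parp9 (chr16:35938470-35972605) stood in OT-II at 107, 109 and 110 CPM after saline, 130, 112 and 115 after molar-equivalent OVA, 117 and 124 after higher-dose OVA, and 90.1, 83.7 and 97.8 after A8B1-OVA. It fell against molar-equivalent OVA (-0.38 ± 0.10 SE, adjusted p = 0.0345). In OT-I it held 119, 139 and 135 CPM after saline, 151, 125 and 110 after molar-equivalent OVA, 130, 132 and 179 after higher-dose OVA, and 118, 117 and 173 after A8B1-OVA. No treatment change was called there. Dtx3l overlaps exons of Parp9 on the other strand, so that unstranded counts could mix. It held 127, 188 and 131 CPM after saline, 157, 161 and 102 after molar-equivalent OVA, 132, 141 and 165 after higher-dose OVA, and 129, 142 and 192 after A8B1-OVA in OT-I. The OT-II values of Dtx3l were 124, 159 and 140 CPM after saline, 127, 137 and 135 after molar-equivalent OVA, 143 and 152 after higher-dose OVA, and 107, 95.4 and 127 after A8B1-OVA, and Dtx3l was not called. Parp14 ranged from 54.2 to 80 CPM in OT-I libraries and 55 to 83.4 in OT-II and was not called.

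Some of these genes differed between OT-I and OT-II cells after saline alone. Of 42, 6 were lower and 1 higher in OT-I (15.5% of all genes called, 8.36% higher, 7.11% lower), or 3 and 1 without the 5 libraries (644 and 939 over all genes). The total, 7 of 42, was near the share of all genes called. With same-numbered OT-I and OT-II libraries paired by a replicate block, 9 were lower and 3 higher, the further calls being Oasl1, Oas2 and Ifih1 (-0.79, -1.16 and -0.57, adjusted p = 0.00843, 0.0216 and 0.0234) and Trim30a and Rtp4 (0.44 and 0.38, adjusted p = 0.0132 and 0.0388). Over all 15235 genes tested the paired fit called 1144 lower and 1370 higher, and the unpaired fit 1083 and 1273. Iigp1 stood in OT-I at 6, 9.22 and 8.52 CPM after saline, 9.45, 6.78 and 6.79 after molar-equivalent OVA, 35.6, 4.96 and 8.05 after higher-dose OVA, and 6.47, 4.38 and 6.93 after A8B1-OVA. Its OT-II values ran from 36.6 to 107 CPM, and the log2 fold change after saline was -3.34 ± 0.47 SE, adjusted p = 3.53e-05. Ifi44, a type I interferon-induced cytosolic protein, held 0.843, 1.95 and 0.245 CPM after saline, 1.46, 1.33 and 0.387 after molar-equivalent OVA, 6.38, 0.589 and 0.877 after higher-dose OVA, and 1.18, 1.19 and 1.17 after A8B1-OVA in OT-I. The OT-II values of Ifi44 were 8.44, 17.4 and 8.98 CPM after saline, 21.8, 19 and 9.17 after molar-equivalent OVA, 14.7 and 18.8 after higher-dose OVA, and 13, 10 and 14 after A8B1-OVA. The difference after saline was -3.50 ± 0.73 SE, adjusted p = 0.00199. OT-I higher-dose OVA replicate 1, the library with 163 CPM of Cd4, was the highest OT-I library for both (35.6 and 6.38 CPM), and its part in these 2 values was not tested. Igtp (-0.69, adjusted p = 0.00236) and Irgm2 (-0.91, adjusted p = 0.00891) were also lower in OT-I, as were Ifi27l2a and Irf9 (-0.65 and -0.42), whose calls were each lost without at least 1 library.

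Oas3, a 2-5A synthetase that senses long double-stranded RNA, went the other way. It held 64.9, 85.7 and 67.9 CPM after saline, 82, 92.7 and 36.6 after molar-equivalent OVA, 70.4, 87.8 and 114 after higher-dose OVA, and 86.7, 75.6 and 96.4 after A8B1-OVA in OT-I. The OT-II values of Oas3 were 25.3, 31 and 22.5 CPM after saline, 40.2, 27.3 and 27.9 after molar-equivalent OVA, 30.1 and 44.7 after higher-dose OVA, and 20.4, 24.7 and 26.7 after A8B1-OVA. Oas3 was higher in OT-I after saline (1.47 ± 0.27 SE, adjusted p = 0.000551) and after A8B1-OVA (1.85, adjusted p = 6.69e-05). One OT-I molar-equivalent library (36.6 CPM) lay within the OT-II range. After A8B1-OVA, 11 of 42 genes were higher and 5 lower in OT-I than in OT-II (20.6% of all genes called, 12.2% higher, 8.34% lower), or 9 and 5 without the 5 libraries (1715 and 1263 over all genes). Iigp1, Ifi44 and Oasl1 were lower (-3.04, -3.39 and -1.19), with Igtp and Gbp8. Trim30a, Zbp1, Gbp3, Parp9 and Dhx58 (0.66, 0.48, 0.64, 0.59 and 0.68) were higher, as were Ifi27l2a (0.77), Xaf1, Rtp4, Gbp2 and Cmpk2. Calls held without any 1 library for Oas3, Iigp1, Ifi44, Trim30a, Oasl1, Zbp1 and Gbp3, and the 11 higher calls became 7 and 6 without OT-I A8B1-OVA replicate 1 or 3. The 5 lower calls became 3 without OT-I A8B1-OVA replicate 2. Over all genes, 1338 and 2269 were called higher and 751 lower in these fits, against 1864 and 1271 in the main fit. With same-numbered libraries paired by a replicate block, 13 genes were higher and 7 lower. Over all 15235 genes tested that fit called 1956 higher and 1366 lower.

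**Figure D4:**
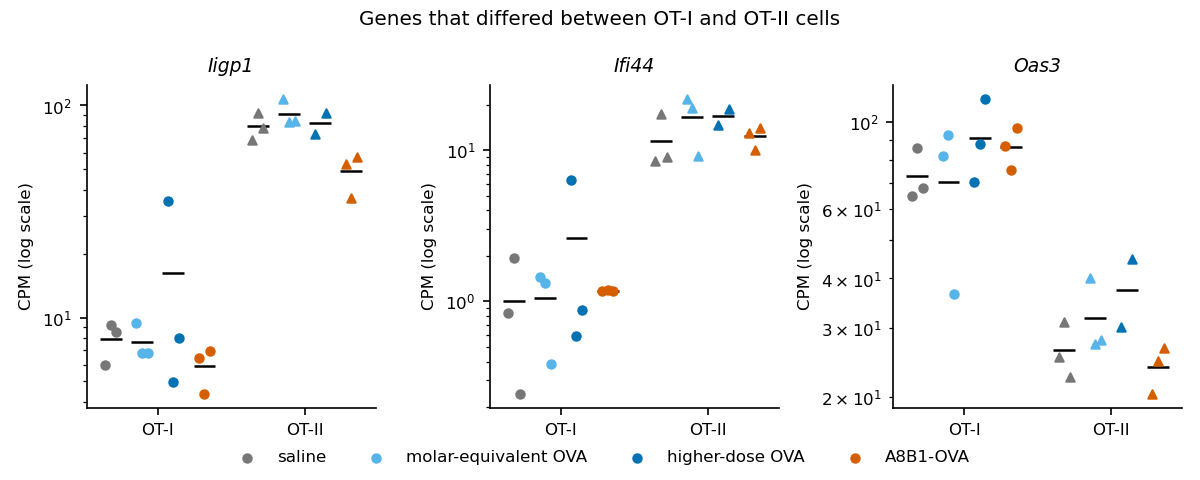
CPM on log axes of Iigp1, Ifi44 and Oas3 in every library, by cell type (circles OT-I, triangles OT-II) and treatment (colours), with a line at each group mean. Iigp1 and Ifi44 are lower in every OT-I library than in any OT-II library, OT-I higher-dose OVA replicate 1 is the highest OT-I point for both (35.6 and 6.38 CPM), and Oas3 is higher in OT-I except for 1 molar-equivalent library.

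The genes that start and steer the response were read from lists chosen alongside the members. Of 10 interferon genes, Ifnb1, Ifna2, Ifna4, Ifna5, Ifne, Ifnl2 and Ifnl3 had 0 counts in all 23 libraries, where a count of 0 allows 0.0408 to 0.113 CPM by counting error alone. Ifna1 stood at 0.0746 CPM in OT-I saline replicate 2 and at 0 elsewhere, and Ifnk reached at most 0.0903 CPM. Ifng, made by activated T cells themselves, held 1.88, 3.28 and 2.25 CPM after saline, 0.906, 1.41 and 3.51 after molar-equivalent OVA, 6.99, 9.92 and 13.1 after higher-dose OVA, and 5.79, 6.13 and 4.97 after A8B1-OVA in OT-I. It rose with A8B1-OVA against molar-equivalent OVA (1.54 ± 0.43 SE, adjusted p = 0.0376) and was not called against saline (1.18 ± 0.42 SE, adjusted p = 0.092). It rose with higher-dose OVA against saline (2.03, adjusted p = 0.0255) and molar-equivalent OVA (2.39, adjusted p = 0.0245). These 3 Ifng calls were lost without most single libraries of the groups compared, A8B1-OVA replicate 1 or 2, molar-equivalent OVA replicate 1 or 2, higher-dose OVA replicate 2 or 3 and any 1 saline library (adjusted p = 0.0547 to 0.127). In OT-II it ranged from 0.504 to 2.29 CPM with no call.

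Of 7 receptor and Janus kinase genes, Ifngr1 and Ifngr2 fell in both cell types, and Ifnar2 and Jak2 rose in OT-II. With A8B1-OVA against saline, 4.43% of all genes were called lower in OT-I, and 2.88% lower and 4.4% higher in OT-II. Ifngr2, the signalling chain of the IFN-gamma receptor, stood in OT-I at 73.9, 59.9 and 68.4 CPM after saline, 68, 61.5 and 63.4 after molar-equivalent OVA, 49.2, 27.9 and 34.7 after higher-dose OVA, and 20.4, 19.4 and 19.8 after A8B1-OVA. The 4 treatments fell into 3 levels: saline with molar-equivalent OVA, then higher-dose OVA, then A8B1-OVA. The log2 fold change of A8B1-OVA was -1.77 ± 0.18 SE, adjusted p = 9.23e-05 against saline and -0.94 (adjusted p = 0.02) against higher-dose OVA, and that of higher-dose OVA against saline was -0.83 (adjusted p = 0.0249). The first held in every alternative fit. The comparison with higher-dose OVA was lost without A8B1-OVA replicate 1 or 2 or higher-dose OVA replicate 1 or 3 (adjusted p = 0.052 to 0.118). That of higher-dose OVA with saline was lost without any 1 saline library or higher-dose OVA replicate 2 or 3 (0.068 to 0.117). In OT-II it held 122, 113 and 130 CPM after saline, 133, 105 and 108 after molar-equivalent OVA, 117 and 91.2 after higher-dose OVA, and 76.1, 75.4 and 85.7 after A8B1-OVA, with -0.61 ± 0.12 SE, adjusted p = 0.0115 against saline. The OT-I response was the larger fall, by -1.14 ± 0.22 SE, adjusted p = 0.0189, a call lost without OT-I A8B1-OVA replicate 2, OT-I saline replicate 1 or 3 or OT-II A8B1-OVA replicate 3 (adjusted p = 0.0544 to 0.0694).

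Ifngr1, the ligand-binding chain, held 425, 381 and 405 CPM after saline, 512, 346 and 369 after molar-equivalent OVA, 303, 379 and 444 after higher-dose OVA, and 210, 168 and 247 after A8B1-OVA in OT-I. The OT-II values of Ifngr1 were 257, 206 and 208 CPM after saline, 254, 191 and 228 after molar-equivalent OVA, 237 and 188 after higher-dose OVA, and 143, 137 and 141 after A8B1-OVA. Ifngr1 fell in both against saline, with -0.96 ± 0.19 SE, adjusted p = 0.00556 in OT-I and -0.66 (adjusted p = 0.00851) in OT-II, and these calls held in every alternative fit. Ifnar2, the type I receptor chain, rose in OT-II (0.55 ± 0.10 SE, adjusted p = 0.00781, against saline) from 110, 100 and 107 CPM to 156, 170 and 135 CPM. In OT-I its change was 0.34 ± 0.11 SE, adjusted p = 0.0732. Ifnar1, its partner, was not called in OT-I (0.13) or OT-II (0.40, adjusted p = 0.0821), nor were Jak1 (-0.27 and 0.16) and Tyk2 (0.32 and 0.21), all against saline.

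**Figure D5:**
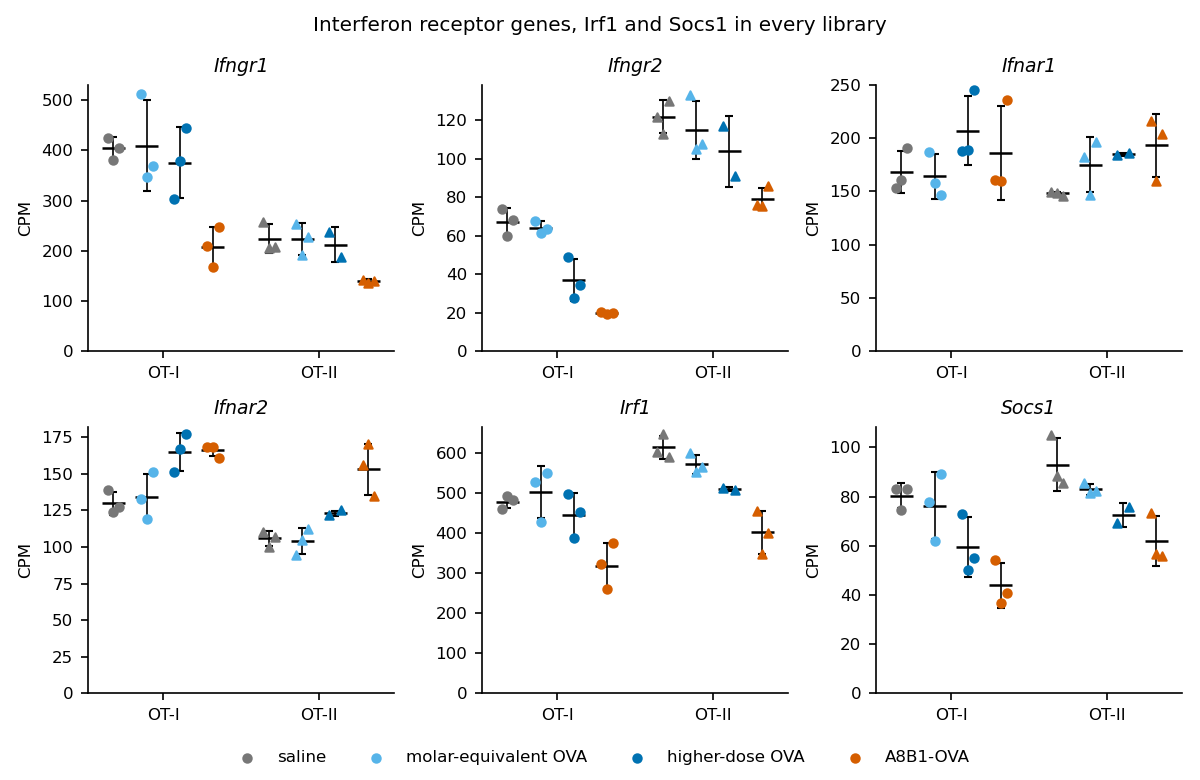
CPM of Ifngr1, Ifngr2, Ifnar1, Ifnar2, Irf1 and Socs1 in every library by cell type and treatment, on linear axes from 0, with the mean and SD of each group. Ifngr2 steps down from saline to higher-dose OVA to A8B1-OVA in OT-I, A8B1-OVA is the lowest group for Ifngr1, Irf1 and Socs1 in both cell types, and Ifnar2 is highest after A8B1-OVA in OT-II.

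Of 6 other transcription factors, Irf1, the main IFN-gamma-induced activator of the GTPase genes, fell in OT-I (-0.60 ± 0.15 SE, adjusted p = 0.0234) and OT-II (-0.60 ± 0.10 SE, adjusted p = 0.00384) against saline. There 4.43% and 2.88% of all genes were called lower, and 7.07% and 4.4% higher. Irf1 went from 461, 494 and 482 CPM to 322, 261 and 375 CPM in OT-I and from 602, 647 and 591 to 456, 349 and 401 in OT-II, with no overlap. The OT-II call held in every alternative fit, and the OT-I call held without A8B1-OVA replicate 3 and was lost without each other single library of those groups. Irf8 rose in both (OT-I 1.80 ± 0.40 SE, adjusted p = 0.0121, OT-II 1.71 with adjusted p = 0.00129). Its highest value outside A8B1-OVA, 74.7 CPM, was in OT-I molar-equivalent OVA replicate 2, a library with raised B cell and myeloid markers, and the part of those cells in the Irf8 values was not tested.

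The negative regulators held 4 falls and 1 rise among 8 in OT-I against saline (4.43% and 7.07% of all genes). In OT-II they held 2 falls among 8 (2.88% of all genes). Socs1, the inhibitor of Janus kinases that IFN-gamma itself induces, went in OT-I from 83.3, 74.4 and 83.2 CPM to 54.2, 36.9 and 40.7 CPM (-0.88 ± 0.19 SE, adjusted p = 0.00889). In OT-II it went from 105, 88.3 and 85.4 CPM to 73.5, 56.8 and 55.7 CPM (-0.57, adjusted p = 0.0154). Socs3 fell in OT-I (-1.23 ± 0.24 SE, adjusted p = 0.0056) and OT-II (-1.52, adjusted p = 0.00384); OT-II saline replicate 1, with raised myeloid markers, held 389 CPM and the other saline libraries 177 and 191. Ptpn2 and Pias1 fell and Ptpn11 rose in OT-I (-0.54, -0.50 and 0.48), calls that were each lost without A8B1-OVA replicate 1 or 2 or saline replicate 1 or 3.

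Of 12 class I presentation and immunoproteasome genes, B2m, H2-K1 and Psmb10 fell in OT-II with A8B1-OVA against saline (-0.35, -0.29 and -0.37). There 2.88% of all genes were called lower. Each of the calls was lost without A8B1-OVA replicate 1 or saline replicate 1 or 3. In OT-I the 12 values lay between -0.26 and 0.35. A wider list of 76 interferon-stimulated genes outside the 43 had 70 tested within each cell type. In OT-I 6 rose and 3 fell against saline, with a median of -0.05. These shares, 8.57% and 4.29%, lie near those of all tested genes (7.07% and 4.43%). In OT-II 2 rose and 10 fell (2.86% and 14.3%, against 4.4% and 2.88% of all genes), with a median of -0.23. The T cell GTPase Tgtp1, a near-identical copy of Tgtp2, fell in OT-I (-1.37 ± 0.24 SE, adjusted p = 0.00283) from 516, 513 and 620 CPM to 225, 168 and 248 CPM and in OT-II (-1.10, adjusted p = 0.00246). Reads can pass between the 2 copies. Ly6a and Ube2l6, the conjugating enzyme for ISG15, fell in OT-II (-0.78 and -1.09), and Apobec3, a cytidine deaminase that restricts retroviruses, rose in OT-I (0.58).

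Within groups, the 42 genes went up and down together from library to library. Taking each library's deviation from its group mean over all 23 libraries, the median Pearson r over the 861 pairs of genes was 0.56, against 0.0 over all pairs of tested genes. The libraries share depth and cell makeup, so this is a description with no test. The pairs with the highest r were Ifit1 with Ifit3 (0.95), Usp18 with Ifit3 (0.94) and Gbp7 with Gbp8 (0.93), of which Ifit3 and Gbp8 share sequence with other genes. By role, the median was 0.69 for the 15 pairs of guanylate-binding protein genes and 0.45 for the 10 pairs of sensors. Gbp6 (0.77), Ifit1 (0.74) and Ifit3 (0.71) had the highest median r with the other members, and Zbp1 (0.24) and Ifi27l2a (-0.18) the lowest. Ifi27l2a was the only member with a median below 0.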

How the data were processed

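Bulk RNA-seq libraries from sorted OT-I and OT-II cells were made with SmartSeq cDNA amplification, per the labels' protocols. Reads were quantified with kallisto 0.46.1 against GRCm38, per the submitters' processing notes. The sources used here do not give the annotation release, the use of strand or any rounding. The deposited table holds estimated counts, all whole numbers, for 21900 protein-coding genes in 23 libraries, so rounding them changed nothing. A floor of 3 counts stood at 0.0408 to 0.113 CPM by library, and intervals from counts cover counting error only.

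From these counts CPM were computed on TMM-scaled totals. Quasi-likelihood tests were run in edgeR 4.0.16 (R 4.3.3) after filterByExpr (minimum count 10, minimum total 15), with all 4 treatments of a cell type in 1 fit (14080 genes in OT-I, 14757 in OT-II). A joint fit (15235 genes) tested OT-I against OT-II and the differences of their responses. Calls were made where the adjusted p (Benjamini-Hochberg) was under 0.05. The fits were tested on simulated counts drawn independently for each gene. Those counts lack the shared variation between genes seen here, so they do not bear on how many members are called together. DESeq2 1.42.0 size factors and Wald test, no filter, a replicate block, fits on the compared groups alone and leaving out each library were alternatives. Deviations from group means correlated above 0.1 for all 3 same-numbered pairs of OT-I and OT-II saline libraries (0.281, 0.129 and 0.128). The A8B1-OVA pairs stood at 0.0119, 0.164 and 0.248. Paired counts are given for both comparisons, and fold changes between the cell types come from the unpaired fit unless the block is named. Over all treatments 6 of 11 same-numbered pairs and 1 of 22 others passed 0.1. The labels do not say that a number marks the same mice. A fit without the 5 libraries with raised markers (B cell or myeloid sum over 3 times the cell type's median, or the other cell type's co-receptor over 10% of its level there) was chosen after seeing the data.

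The 43 genes and all lists were chosen with earlier results of these data known. Any of the 43 could be named. Library values are given for the 20 with the lowest adjusted p among those called at least once and for the member of highest mean CPM in each role, and other members by range. Outside the 43, up to 4 called genes with the lowest adjusted p per list and comparison, and fixed receptor and signalling genes, could be named. Shared sequence is the share of a gene's 31-base words found in GENCODE M21 transcripts of another gene of the deposited protein-coding table. Other genes of that annotation were not searched.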

Additional observations from a re-analysis of the deposited data

Results flagged for a closer look

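The response to A8B1-OVA against saline differed between the cell types past the threshold of edgeR's quasi-likelihood test for 4 of the genes read here, 1 of the 43 and 3 from the wider lists. Ifi27l2a responded more in OT-I by 1.43 on the log2 scale, and Ifngr2 fell further there, with a difference of -1.14. Slfn2, a Schlafen gene, differed by 0.72 and Phf11a by 1.23, both with the higher value in OT-I. Groups of 3 libraries were too small for a test of single libraries that stand apart.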

How the results depend on the processing

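No called member or named gene changed direction in any alternative run. Of 72 called results for members, leaving out 1 library kept 238 and lost 198 of 436 refits, and the other settings kept 339 and lost 69 of 408. Leaving out 1 library gave 1 to 7 calls in OT-I for A8B1-OVA against saline, 1 to 10 against molar-equivalent OVA and 0 to 5 against higher-dose OVA, and 0 to 1 for higher-dose against molar-equivalent OVA. In OT-II it gave 3 to 11, 4 to 16 and 0 to 2 for A8B1-OVA against saline, molar-equivalent and higher-dose OVA, and 0 to 1 for the difference between the responses. Without the raised-marker libraries the counts were 1 in OT-I for A8B1-OVA against saline, 0 and 0 for higher-dose OVA against saline and molar-equivalent OVA, 6 and 0 in OT-II for A8B1-OVA against saline and higher-dose OVA, 0 for the difference between the responses and 4 between the cell types after saline. Fits on the compared groups alone gave 1 and 0 in OT-I for A8B1-OVA and higher-dose OVA against molar-equivalent OVA, and 9 and 0 in OT-II for A8B1-OVA against molar-equivalent and higher-dose OVA. DESeq2 called 6 in OT-I against higher-dose OVA, 25 and 10 in OT-II against molar-equivalent and higher-dose OVA, and 2 for the difference between the responses. It also called more of all genes, with 434, 762 and 294 lower in the first 3 of these (109, 358 and 77 by edgeR). For the difference it called 170 higher (47 by edgeR). Allowing 1 mismatch, the GAS core stood in 26 of 30 genes (74.2% of all genes of the table) and the ISRE core in 27 (38.9%). The cause of these shifts was not tested.

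Replicate numbers did not pair treatments within a cell type: same-numbered deviations correlated above 0.1 in 2 of 18 pairs within OT-I and 0 of 15 within OT-II. A replicate block gave 0 calls in OT-I for higher-dose against molar-equivalent OVA, 0 in OT-II for A8B1-OVA against higher-dose OVA, and 12 and 20 between the cell types after saline and A8B1-OVA. In the first 2 of these it called 98 genes higher and 15 lower over all genes, against 118 and 77 without the block. Most of the interferon genes had 0 counts, and depth only bounds how low a level could be seen for them. Why they had 0 counts was not tested. Ifi44 in OT-I was low but above the floor of 3 counts in every library.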
